A study of Mus musculus with 6 samples.

Results

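The Polo-like kinases are the family of the enzyme that BI6727 inhibits. The count table was searched for Plk1, Plk2, Plk3, Plk4 and Plk5 by gene identifier, and all 5 were found among its 54752 genes. RNA was sequenced from NIH/3T3, an established fibroblast line from mouse embryos, in 3 groups of 2 libraries, with all cells kept in complete DMEM and collected after 72 h. The vehicle group received PBS. The DMSO group received TGF-β1 (TGFB1) at 1 ng/ml with DMSO, and the BI6727 group received TGF-β1 at 1 ng/ml with BI6727 at 5 μM. BI6727, also called volasertib, is an ATP-competitive inhibitor of PLK1 that also acts on PLK2 and PLK3 at higher concentrations. As DMSO was given with TGF-β1 and PBS without it, effects of TGF-β1 and of DMSO cannot be told apart against vehicle. Nothing in the labels says that the replicates were separate cultures, so p-values measure only the spread between these libraries.

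Polo-like kinases are serine/threonine kinases with a kinase domain followed by polo boxes, which dock them to phosphorylated partners. PLK1 drives mitotic entry, spindle assembly and cytokinesis, and its transcript peaks in G2 and M phase. PLK4 starts centriole duplication. Plk2 and Plk3 were first known as immediate early genes induced by serum and growth factors in fibroblasts, and both respond to stress and DNA damage. PLK5 is known mainly from the brain.

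The libraries held between 18362378 and 24452153 counts on genes. Of the 10 fibroblast markers examined, 9 had at least 1 normalized CPM (the count after scaling to library size with edgeR's TMM factors) in every library, and they summed to between 8024 and 10731 normalized CPM. The 5 epithelial markers were under 1 CPM throughout. Of the 5 leukocyte markers, Cd3e and Adgre1 had no counts, and only Cd68 reached 1 CPM in every library, with sums from 3.64 to 4.60 normalized CPM with vehicle, 2.87 to 2.91 with DMSO and 3.03 to 3.15 with BI6727. The 4 endothelial markers summed to between 0.303 and 0.892 normalized CPM with vehicle, 2.82 and 3.72 with DMSO and 1.98 and 2.62 with BI6727, with no count of Kdr, and the part of such cells in any result was not tested. Among the replicate pairs, the DMSO libraries differed most. The SD across genes of their log2 difference was 0.378, against 0.225 between the vehicle libraries and 0.220 between the BI6727 libraries, and the difference between the DMSO libraries rose with gene length (Spearman correlation of 0.525 across genes, which are not independent replicates). Calls on the kinases and counts of the lists are therefore also given without these libraries where they change.

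The promoters of the 4 kinases with measurable transcripts are shown first, since Plk1 and Plk4 had less and Plk2 and Plk3 more RNA in the treated libraries. Sequences are from RefSeq on GRCm38.p6 (mm10), 250 bases before to 50 bases after the annotated start, on the strand of the gene. A promoter was found for all 5 members. Capitals mark matches, on either strand, to 5 motifs: the cell cycle genes homology region (CHR, TTTGAA) and the CCAAT box of G2/M genes, the cAMP response element (CRE, TGACGTCA), the E2F site (TTTGGCGC or TTTCGCGC), and a SMAD-type CAGA motif (CAGACA). None of these motifs overlapped another in the matches shown.
Plk1, chr7:122159185-122159484, plus strand: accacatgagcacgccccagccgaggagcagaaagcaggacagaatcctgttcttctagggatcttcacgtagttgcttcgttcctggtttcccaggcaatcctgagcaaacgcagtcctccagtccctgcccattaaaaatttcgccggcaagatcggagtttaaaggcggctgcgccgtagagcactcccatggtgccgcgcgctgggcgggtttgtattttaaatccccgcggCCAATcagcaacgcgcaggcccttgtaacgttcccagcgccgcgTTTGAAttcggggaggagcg
Plk4, chr3:40799701-40800000, plus strand: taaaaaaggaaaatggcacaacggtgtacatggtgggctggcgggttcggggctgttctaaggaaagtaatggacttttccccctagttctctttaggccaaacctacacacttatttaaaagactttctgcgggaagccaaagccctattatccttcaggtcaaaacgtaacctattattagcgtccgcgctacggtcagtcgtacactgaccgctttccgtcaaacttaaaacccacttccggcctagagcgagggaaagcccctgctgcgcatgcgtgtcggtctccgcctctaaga
Plk2, chr13:110394794-110395093, plus strand: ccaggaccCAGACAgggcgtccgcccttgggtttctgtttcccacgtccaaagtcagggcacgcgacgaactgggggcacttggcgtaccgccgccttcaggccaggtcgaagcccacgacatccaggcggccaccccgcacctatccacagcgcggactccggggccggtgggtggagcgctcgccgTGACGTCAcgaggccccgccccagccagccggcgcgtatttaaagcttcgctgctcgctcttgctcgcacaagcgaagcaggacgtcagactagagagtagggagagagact
Plk3, chr4:117133914-117134213, minus strand: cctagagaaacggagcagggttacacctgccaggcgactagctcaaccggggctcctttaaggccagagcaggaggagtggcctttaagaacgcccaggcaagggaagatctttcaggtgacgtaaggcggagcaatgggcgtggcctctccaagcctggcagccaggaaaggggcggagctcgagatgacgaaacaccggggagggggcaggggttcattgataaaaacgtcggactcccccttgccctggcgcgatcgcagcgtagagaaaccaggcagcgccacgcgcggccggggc

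In the Plk1 window, a CCAAT box lay at -14 to -10 and a CHR at 31 to 36 from the start, both on the plus strand. Plk2 had a CRE at -62 to -55 and a CAGA motif at -242 to -237. The Plk3 and Plk4 windows held none of the 5 motifs in these letters (0 matches each), and the Plk5 window held a CCAAT box at -5 to -1. The Plk4 window, set by the RefSeq start, ended at 40800000, before the start of Plk4 in the count table at 40800019. Among all 32851 promoter windows of this length, 17.9% held TTTGAA, 37.4% CCAAT, 1.79% the CRE, 0.813% the E2F site and 21.0% CAGACA. A match is a description of the letters and was not tested as a binding site.

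The question of the first comparison was how TGF-β1 with DMSO moved the family against vehicle. Plk1 and Plk4, the cell cycle members, had less RNA, and Plk2 and Plk3, the growth factor and stress responsive members, had more. A gene was said to rise or fall at a Benjamini-Hochberg adjusted p below 0.05, from the quasi-likelihood test of edgeR over 14604 genes. By that rule 2 members rose (Plk2 and Plk3), 1 fell (Plk1) and Plk4 did not pass. In this comparison 20.9% of all genes tested passed, 9.87% higher and 11.0% lower. The stricter rule of the study, an adjusted p below 0.01 with a fold change above 2, was passed by Plk3 alone among the members, and by 5.98% of all genes, 2.75% higher and 3.23% lower. At an unadjusted p below 0.05 all 4 passed, with 35.2% of all genes. The groups did not overlap in any of the 4 kinases, as in 60.5% of all genes tested.

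Plk1 (ENSMUSG00000030867.7, chromosome 7, 122159439 to 122169873, plus strand) had 96.0 and 103 normalized CPM with vehicle. With DMSO it had 70.7 and 68.9, and with BI6727 it had 59.6 and 62.6. The 3 groups were thus stacked without overlap, vehicle highest and BI6727 lowest. In either direction, DMSO and vehicle did not overlap in 60.5% of all genes tested, and BI6727 and DMSO in 35.1%. Between DMSO and vehicle the log2 level of Plk1 fell by 0.51 (SE, the standard error, 0.10 and edgeR adjusted p of 0.0102), from 99.7 ± 5.21 to 69.8 ± 1.30 normalized CPM (SD, n = 2). In bulk RNA, fewer cells in G2 and M phase and less Plk1 RNA per cell cannot be told apart. A larger absolute change was measured in 31.2% of all genes tested. Without vehicle replicate 1 the adjusted p was 0.0728, and without vehicle replicate 2 it was 0.111, so the call rested on having both vehicle libraries. The antisense gene Gm44985 covers 7.09% of the exonic length of Plk1, but it had 2 counts in DMSO replicate 2 and 0 elsewhere. Of the windows of 50 bases in the exons, 10.4% for Plk1, 3.83% for Plk4, 1.36% for Plk3 and 0% for Plk2 also occur in exons of other genes, on either strand, so reads there may be shared. For Plk1 and Plk3 they include the antisense overlaps with Gm44985 and Tctex1d4, which are the same locus and not repeated sequence. The strand setting of the counting is not given in the sources used here.

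Plk4 (ENSMUSG00000025758.10, chromosome 3, 40800019 to 40816883, plus strand), the kinase of centriole duplication, had 70.5 and 71.6 normalized CPM with vehicle. It had 56.8 and 54.3 with DMSO and 50.9 and 47.2 with BI6727. The order of the groups was that of Plk1, again without overlap. Of all genes tested, 60.5% did not overlap between DMSO and vehicle, and 35.1% between BI6727 and DMSO. Between DMSO and vehicle the log2 fold change was -0.35 (SE 0.11, edgeR adjusted p of 0.0510), with a 95% interval from -0.60 to -0.11. Plk4 passed without DMSO replicate 1 (adjusted p = 0.00392), without DMSO replicate 2 (0.0243), and among the genes of the study's filter of 10 CPM in more than 3 samples (0.0408). It did not pass in the other fits, and with offsets against each library's trend on gene length it stood at -0.24 (0.0972).

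Plk2 (ENSMUSG00000021701.8, chromosome 13, 110395046 to 110400844, plus strand) had 112 and 122 normalized CPM with vehicle. It had 162 and 179 with DMSO and 145 and 163 with BI6727. Both treated groups lay above vehicle, and they overlapped each other. With DMSO it rose by 0.54 on the log2 scale, a fold change of 1.46 (SE 0.11, edgeR adjusted p of 0.0117). Without vehicle replicate 1 the adjusted p was 0.144, and without vehicle replicate 2 it was 0.0774. No other gene overlaps its exons in the count table.

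Plk3 (ENSMUSG00000028680.14, chromosome 4, 117128655 to 117133963, minus strand) was the lowest of these 4 kinases with vehicle, at 15.9 and 16.9 normalized CPM. It had 39.7 and 41.5 with DMSO and 37.9 and 45.6 with BI6727. Every treated library therefore held more than 2 times the CPM of either vehicle library, and the DMSO values lay between the BI6727 values. Its rise with DMSO was the largest in the family, with a log2 fold change of 1.31 and a fold change of 2.48 (SE 0.14, edgeR adjusted p of 0.000402). Only 8.13% of all genes tested had a larger absolute change. The call at 0.05 was kept without any single library, with a largest adjusted p of 0.0163, but the stricter rule was not passed without vehicle replicate 1 (0.0163) or vehicle replicate 2 (0.0121). Tctex1d4 covers 3.32% of its exonic length on the other strand and had at most 8 counts in a library.

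Plk5 (ENSMUSG00000035486.14, chromosome 10, 80356459 to 80365489, plus strand) was not detectable at this depth in vehicle. It had 0 counts in both vehicle libraries, which allows up to 0.152 and 0.134 normalized CPM at a floor of 3 counts. With DMSO it had 2 and 4 counts, and with BI6727 it had 2 and 0. It did not pass the filter on low counts, and no fold change is given.

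**Figure D1:**
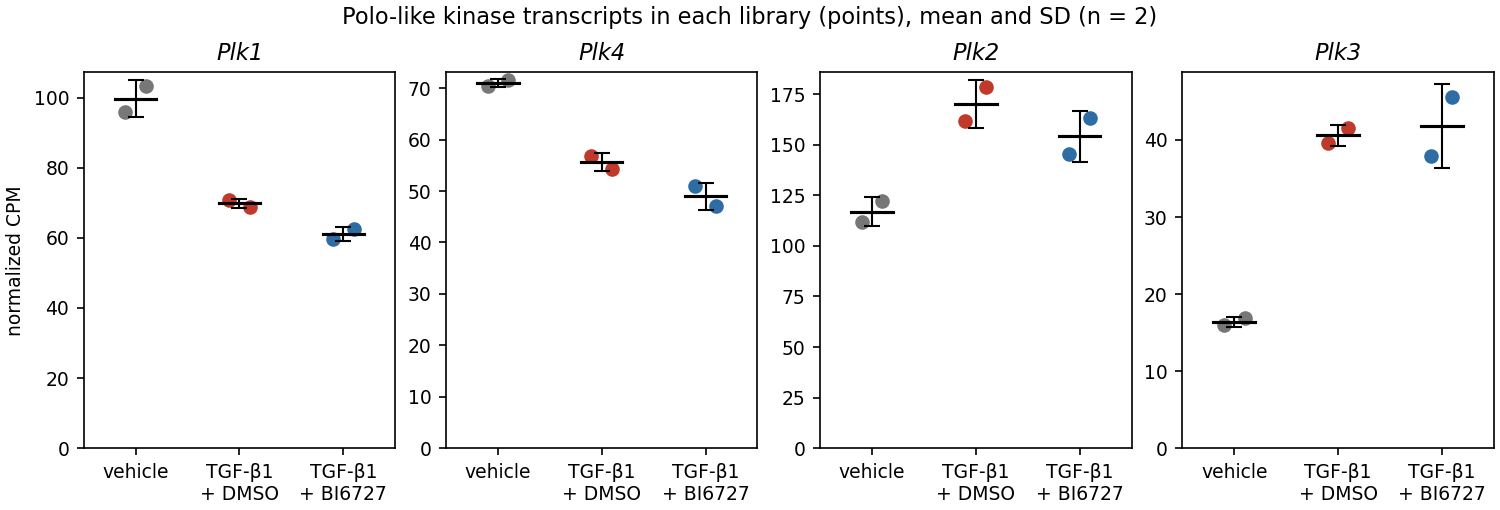
Normalized CPM (y axis, from 0) of Plk1, Plk4, Plk2 and Plk3 in the vehicle, DMSO and BI6727 libraries (x axis), with each library as a point and bars for the mean and SD of 2 libraries. Plk1 and Plk4 step down from vehicle to BI6727, while Plk2 and Plk3 are higher in the 4 treated libraries than in the 2 vehicle libraries.

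The second comparison, BI6727 against DMSO under TGF-β1, asked what the PLK1 inhibitor changed. None of the 4 kinases passed (0 higher and 0 lower with edgeR, 0 at an unadjusted p below 0.05, and 0 with DESeq2). Of all genes tested 0.0137% passed here, all of them lower, and 7.13% had an unadjusted p below 0.05. The transcript of the inhibited kinase was 0.875 times its DMSO level, with a log2 fold change of -0.19 (SE 0.11, edgeR adjusted p of 0.740) and a 95% interval from -0.43 to 0.048. Plk4 was close to it at -0.18 (SE 0.11, edgeR adjusted p of 0.766), with an interval from -0.43 to 0.068. For Plk1 and Plk4 the BI6727 values all lay under the DMSO values, and 35.1% of all genes had groups without overlap. For Plk2 the log2 fold change was -0.14, with an interval from -0.40 to 0.11. For Plk3 it was 0.043, with an interval from -0.26 to 0.35, and it was -0.095 without BI6727 replicate 2. A change of 2-fold in either direction thus lay outside the interval of each kinase.

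Over all genes this comparison depended on the DMSO libraries. When DMSO replicate 1 was left out, 1574 genes passed as higher and 1243 as lower with BI6727, against 0 and 2 with all libraries. With all libraries, DESeq2 gave 2 higher and 36 lower, offsets against a trend on gene length in edgeR gave 1 and 29, and a fit of all genes with any count gave 30 and 122, with 0 of the kinases called in each. Without DMSO replicate 1, none of the 4 kinases passed (0 genes, and 1 at an unadjusted p below 0.05, Plk2), and the log2 fold changes were -0.17 for Plk1, -0.15 for Plk4, -0.21 for Plk2 and 0.014 for Plk3. Without DMSO replicate 2, 161 genes passed as higher and 355 as lower, and the kinases stood at -0.22, -0.23, -0.081 and 0.067 in the same order, again with 0 called and 2 at an unadjusted p below 0.05 (Plk1 and Plk4, both lower). In these fits the single DMSO library is assumed to vary like the other groups. The part of gene length in their counts was not tested.

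The third comparison set TGF-β1 with BI6727 against vehicle, and it shares the vehicle libraries with the first. Plk1 and Plk4 fell, and Plk2 and Plk3 rose, so that all 4 members tested passed, where 22.0% of all genes did (9.98% higher and 12.0% lower). Only Plk3 passed the stricter rule, which 6.22% of all genes passed, 2.51% higher and 3.71% lower, and Plk3 did not pass it without vehicle replicate 1 (edgeR adjusted p of 0.0140) or vehicle replicate 2 (0.01003). At an unadjusted p below 0.05, 35.4% of all genes passed. The groups did not overlap in any of the 4, as in 71.6% of all genes. Plk1 fell by 0.71 in log2 units (SE 0.11, edgeR adjusted p of 0.00219), to 61.1 ± 2.12 normalized CPM (SD, n = 2). Plk4 fell by 0.54 (SE 0.11, edgeR adjusted p of 0.00965), from 71.1 ± 0.770 to 49.0 ± 2.62 normalized CPM. Plk3 rose by 1.35 (adjusted p = 0.000304) and Plk2 by 0.40 (adjusted p = 0.0383). The Plk2 and Plk4 calls were lost without either vehicle library or either BI6727 library, with adjusted p up to 0.291 for Plk2 and 0.128 for Plk4. The Plk1 call was lost without BI6727 replicate 1 (adjusted p = 0.0503). Side by side, the changes from vehicle with DMSO and with BI6727 were -0.51 and -0.71 for Plk1, -0.35 and -0.54 for Plk4, 0.54 and 0.40 for Plk2, and 1.31 and 1.35 for Plk3.

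**Figure D2:**
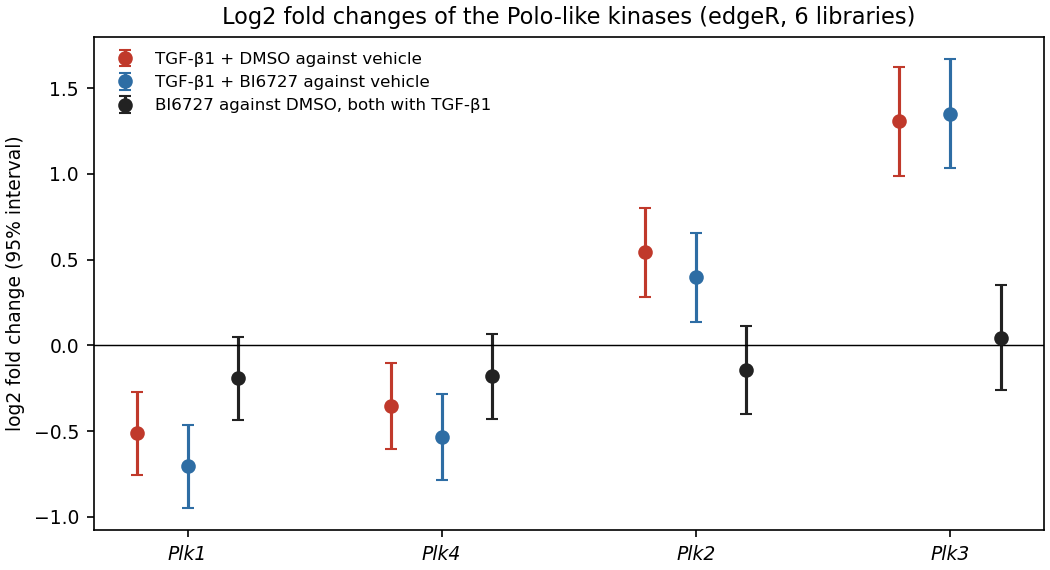
Log2 fold change (y axis, with 95% intervals) of each kinase (x axis) for TGF-β1 with DMSO against vehicle, TGF-β1 with BI6727 against vehicle, and BI6727 against DMSO. Against vehicle the intervals lie below 0 for Plk1 and Plk4 and above 0 for Plk2 and Plk3, and between BI6727 and DMSO all 4 intervals hold 0.

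To compare kinases with each other, levels were set per length as RPKM (normalized CPM per kilobase of the gene's exons in the count table). With vehicle, Plk1 was highest at 45.4 ± 2.37 RPKM, followed by Plk2 at 26.1 ± 1.57, Plk4 at 10.4 ± 0.112, Plk3 at 6.48 ± 0.263 and Plk5 at 0 (SD, n = 2). Plk1 lay above 89.8% of all genes tested by this level, and Plk3 above 52.2%. No neighbours in that order overlapped. With DMSO the order was Plk2 at 37.9 ± 2.66, Plk1 at 31.8 ± 0.589, Plk3 at 16.04 ± 0.522, Plk4 at 8.11 ± 0.260 and Plk5 at 0.053 ± 0.024 RPKM. With BI6727 it was Plk2 at 34.3 ± 2.80, Plk1 at 27.8 ± 0.966, Plk3 at 16.5 ± 2.15, Plk4 at 7.15 ± 0.383 and Plk5 at 0.021 ± 0.029. No neighbours from Plk2 to Plk4 overlapped in either treated group.

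Plk2 and Plk1 thus exchanged places, and so did Plk3 and Plk4. The ratio of Plk2 to Plk1 per length was 0.571 and 0.578 with vehicle, 1.12 and 1.27 with DMSO, and 1.19 and 1.28 with BI6727. The ratio of Plk4 to Plk3 was 1.64 and 1.57 with vehicle, 0.529 and 0.483 with DMSO, and 0.495 and 0.382 with BI6727. Both ratios separated vehicle from the treated libraries. The exons of Plk2 sum to 4491 bases in the table against 2800 in its RefSeq-matched transcript, and those of Plk4 to 6855 against 3479, so levels between kinases depend on the length used. With the RefSeq-matched lengths, Plk2 stood at 40.0 and 43.6 RPKM in the vehicle libraries against 43.7 and 47.0 for Plk1, a ratio of 0.921. In the treated groups that ratio was 1.92 with DMSO and 1.98 with BI6727. Plk4 to Plk3 became 2.96 with vehicle, 0.936 with DMSO and 0.802 with BI6727, and the libraries of Plk3 and Plk4 were then close, at 16.7 and 17.5 against 16.3 and 15.6 RPKM with DMSO. The changes of one kinase between groups are the same with either length.

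**Figure D3:**
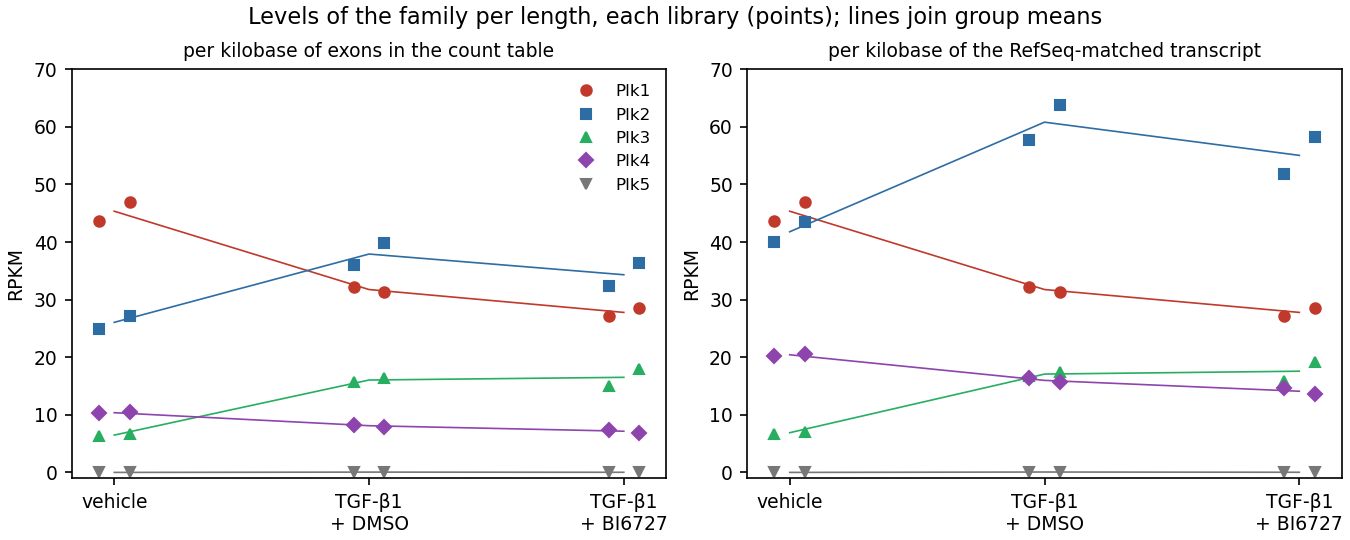
RPKM (y axis) of the 5 kinases in each library (points) of the vehicle, DMSO and BI6727 groups (x axis), per kilobase of all exons in the count table (left) or of the RefSeq-matched transcript (right), with lines joining group means. Plk2 lies above Plk1 in the treated groups on both scales, while their gap with vehicle narrows on the right, where Plk2 stood at 0.921 times Plk1.

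The genes around the kinases were taken in 7 lists by role, with 127 genes in all, of which 126 were tested. Between DMSO and vehicle 18 of them rose and 24 fell, where 9.87% of all genes tested rose and 11.0% fell, and the counts of each list below are to be read against those shares. Of the 13 genes that activate or dock PLK1, 4 fell and none rose (0 genes), with a median log2 fold change of -0.31, where the median of all genes tested was -0.011. Ccnb2, a mitotic cyclin, fell by 0.85 (edgeR adjusted p of 0.0101), and Bub1b, a spindle checkpoint kinase that binds PLK1, by 0.81 (adjusted p = 0.00532). Ccnb1 fell by 0.43 and Ccna2 by 0.39. Exosc9 covers 12.5% of the exonic length of Ccna2 on the other strand. Aurka, the kinase that activates PLK1, had a log2 fold change of 0.33, and Bora, its cofactor, of 0.019, and neither passed (adjusted p of 0.101 and 0.947 in the same test). Aurka and Bora are named outside the rule, for their role.

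Among the 24 genes of PLK1 substrates, 10 fell and 1 rose, with a median of -0.36. Kiz, a spindle pole protein, had 16.4 and 17.8 normalized CPM with vehicle and 8.69 and 9.17 with DMSO, and fell by 0.94 (edgeR adjusted p of 0.00417). Ect2, a guanine nucleotide exchange factor of cytokinesis, had 122 and 132 with vehicle and 75.6 and 68.2 with DMSO, and fell by 0.82 (adjusted p = 0.00123). Prc1, which bundles midzone microtubules, fell by 0.56, and G6pdx, the first enzyme of the pentose phosphate pathway and the PLK1 substrate of interest to the study, by 0.56 (edgeR adjusted p of 0.00951). On the other strand, Rccd1 covers 11.1% of Prc1 and Ikbkg 13.6% of G6pdx. Cep55, an abscission protein, was the 1 that rose, by 0.52, and it is named outside the rule. Of 10 genes for the turnover and dephosphorylation of PLK1, Cdc20 and Klhl22 fell, by 0.42 and 0.41, and Ube2s rose by 0.51. CDC20 directs the anaphase-promoting complex, KLHL22 is an adaptor that removes PLK1 from kinetochores, and UBE2S extends ubiquitin chains for the same complex.

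Of the 20 regulators of G2/M transcription 3 rose and 2 fell, with a median of -0.093, which is near the 9.87% and 11.0% of all genes. Foxm1, an activator of G2/M genes, fell by 0.52 and Rbl2, a pocket protein of the DREAM repressor complex, by 0.88. Mybl2, an activator in the same gene program, rose by 0.61 and E2f5 by 0.59. Other genes cover 21.0% of the exonic length of Rbl2 on the other strand. Of 25 genes of centriole duplication around PLK4, 2 fell and none rose (0 genes), with a median of -0.20, where 11.0% of all genes fell. These were Rttn (-0.77), a centriole assembly protein, and Fbxw5 (-0.74), a ubiquitin ligase subunit that limits centriole number.

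In the lists that stand next to Plk2 and Plk3, more genes rose than fell. Among 20 immediate early genes, 6 rose and 2 fell, with a median of 0.20. Egr2 had 4.40 and 3.35 normalized CPM with vehicle and 26.2 and 20.5 with DMSO, a log2 fold change of 2.59 (edgeR adjusted p of 0.000114). Atf3 rose by 2.24. Fos went the other way, from 28.2 and 11.3 with vehicle to 2.00 and 3.20 with DMSO, and Zfp36 fell by 1.59. Of 15 p53 target genes tested, 7 rose and 2 fell, with a median of 0.48. Pmaip1, which encodes the apoptosis protein NOXA, rose by 2.15, Gadd45a by 1.36, and Mdm2, the ubiquitin ligase of p53, by 1.26 (edgeR adjusted p of 0.000148). Fas, a death receptor, fell by 1.22. E230016M11Rik covers 19.1% of Gadd45a on the other strand.

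The counts of the lists depended on the libraries. For fits other than that of all libraries, the share of all genes is not given here. Whether a change in these counts was particular to the lists was not tested. With all libraries 18 genes rose and 24 fell. Without DMSO replicate 1 these were 32 and 48, without DMSO replicate 2 they were 26 and 32, and without either vehicle library they were 8 or 9 and 4 or 6. Without either BI6727 library 13 rose and 11 or 12 fell. With only the DMSO and vehicle groups in the fit, 11 fell.

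Single lists moved in the same way, again without the share of all genes in the same fit beside them. Without DMSO replicate 1, the PLK1 activation list had 2 higher and 7 lower, the substrates 2 and 16, the turnover list 2 and 4, the G2/M regulators 3 and 8, the centriole genes 1 and 10, the immediate early genes 11 and 2, and the p53 targets 11 and 2. Without DMSO replicate 2 these were, in the same order, 0 and 4, 1 and 12, 2 and 3, 5 and 6, 0 and 3, 8 and 2, and 10 and 2. Without either vehicle library no gene passed in the PLK1 activation, turnover and G2/M lists (0 in either direction with edgeR), and at most 2 substrates and 1 centriole gene fell. Without either BI6727 library 2 genes of the PLK1 activation list, 4 or 5 substrates, 1 G2/M regulator and 1 centriole gene fell, and none of the turnover list passed (0 genes). In those fits 5 or more of the p53 targets and 3 or more of the immediate early genes rose.

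Between BI6727 and DMSO none of the 126 genes passed (0 higher and 0 lower with edgeR, and 0 of either with DESeq2), and 2 were higher and 9 lower at an unadjusted p below 0.05. Of all genes tested, 7.13% were under that unadjusted p in either direction. The list medians lay between -0.10 for the immediate early genes and 0.068 for the centriole genes, where the median of all genes tested was -0.0012. The smallest p in the PLK1 activation list was that of Ccna2, with a change of -0.34 in log2 units (adjusted p = 0.585), and among the substrates that of Cdc25b, a phosphatase that activates CDK1, at -0.50 (adjusted p = 0.523). The second smallest p in these lists were those of the checkpoint kinase Bub1 (-0.17) and of Cep55 (-0.20). In the other lists the corresponding pairs were Klhl22 (0.35) and the ubiquitin-conjugating enzyme Ube2c (-0.29), Mybl2 (-0.43) and the pocket protein Rbl1 (-0.26), and the centriole genes Sass6 (-0.48) and Ccp110 (0.34). They were Egr2 (-0.64) and the transcription factor Srf (-0.33) among immediate early genes, and the apoptosis genes Bbc3 (-0.62) and Pmaip1 (-0.38) among p53 targets. None of these genes passed in edgeR, with adjusted p between 0.523 (Cdc25b) and 0.764 (Bub1). On the other strand, other genes cover 30.9% of the exonic length of Sass6 and 22.8% of that of Ube2c. Without DMSO replicate 1, 13 of the list genes passed as higher and 11 as lower, and without DMSO replicate 2, 1 and 6. The count of 0 therefore held only with both DMSO libraries in the fit. Over all genes, too, more passed with either DMSO library left out, so the rise was not particular to the lists. The difference between the DMSO libraries rose with gene length, and its part in these counts was not tested.

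Against vehicle, TGF-β1 with BI6727 gave 16 higher and 25 lower among the 126 genes, where 9.98% of all genes tested rose and 12.0% fell. In the PLK1 activation list 5 fell and none rose (0 genes), with a median of -0.26, and in the substrate list 9 fell and none rose (0 genes), with a median of -0.37. In the p53 list 8 rose and 2 fell, with a median of 0.40. For the other fits that follow, the share of all genes is not given, so their counts cannot be set against it. The total was 29 higher and 48 lower when only these groups were fitted, and without either vehicle library or either BI6727 library it was 8 or 9 higher and 6 to 8 lower. Without either DMSO library it was 29 higher and 47 or 48 lower. Without either vehicle or BI6727 library, 1 to 3 genes of the PLK1 activation list and 2 or 3 substrates fell, and 5 or 6 p53 targets rose. Without either DMSO library these were 7 or 8, 17 and 12, and 1 gene of the PLK1 activation list and 3 substrates rose.

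**Figure D4:**
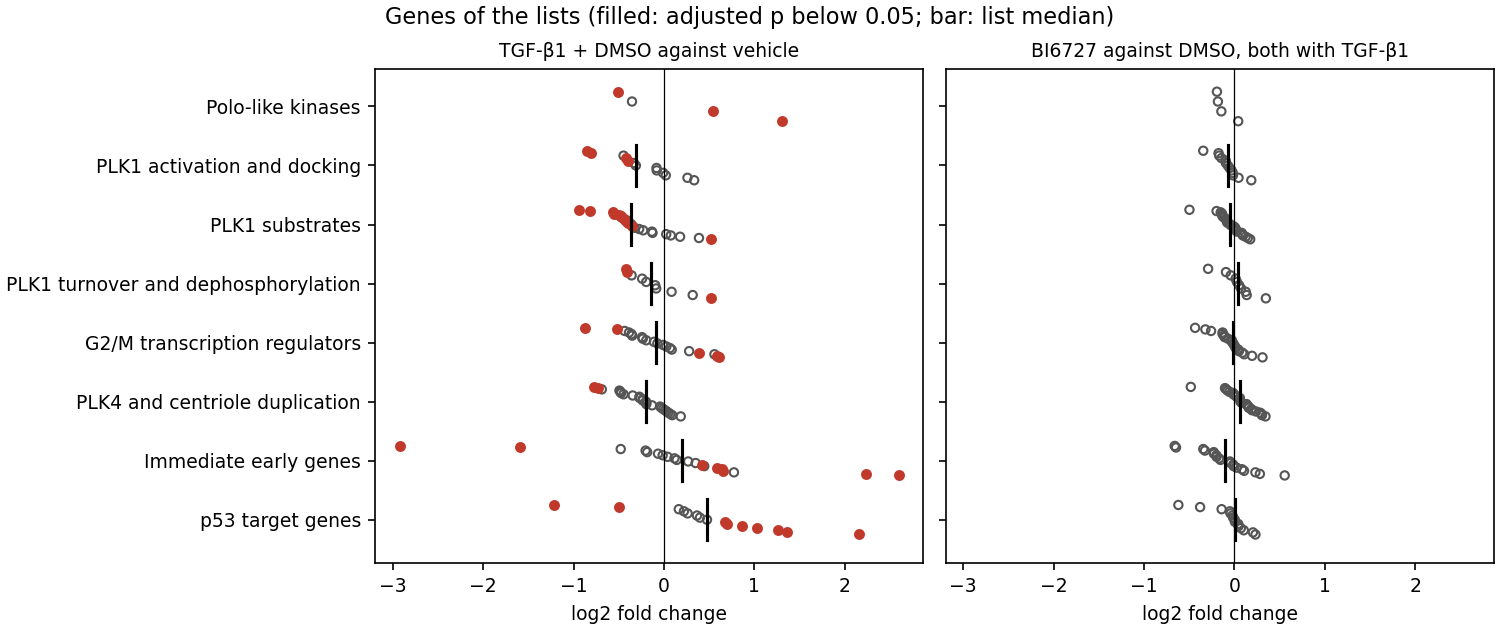
Log2 fold changes (x axis) of the 4 tested kinases and of the genes in the 7 lists (rows) for TGF-β1 with DMSO against vehicle (left) and BI6727 against DMSO (right), with filled points for genes at an adjusted p below 0.05 and a bar at each list's median. On the left the medians run from -0.36 for PLK1 substrates to 0.48 for p53 target genes, and on the right no point is filled.

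The genes whose log2 CPM followed each kinase most closely over the 6 libraries were found by Pearson r among 9705 genes with a mean of at least 10 normalized CPM. For Plk1 these were Abcg2, Apln, 4930447F24Rik, Chil1 and Lynx1, with r between 0.995 and 0.999. For Plk4 they were Pcif1, Fra10ac1, Ccnd3, Ckap4 and Smpd1 (r between 0.994 and 0.997). Those of Plk2 were Tmem68, Dnajb2, Ywhaz, Cndp2 and Upp1 (0.992 to 0.998), and those of Plk3 were Got1, Stx3, Chordc1, Pea15a and Cep83 (0.998 to 0.999). None of the genes named for Plk1 belongs to the PLK1 lists. As the libraries fall into 3 groups, such an r describes the order of the groups, and r was above 0.95 for 433 genes with Plk1, 321 with Plk4, 185 with Plk2 and 527 with Plk3.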

How the data were processed

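Reads of 50 bases from rRNA-depleted RNA were mapped by the authors to mm10 with Subjunc (Subread 1.6.4) and counted per gene on Gencode M20 with featureCounts. The deposited counts are not normalized. Gene symbols were matched by Ensembl identifier for 54723 of 54752 genes. Groups and replicate numbers came from the sample titles.

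Genes passing edgeR's filterByExpr (14604) were tested with edgeR 4.0.16 on R 4.3.3 (quasi-likelihood test, TMM scaling, 6 libraries in one fit, 3 residual degrees of freedom, Benjamini-Hochberg adjustment). The study's filter of 10 CPM in more than 3 samples leaves 9518 genes and was an alternative. Standard errors (SE) came from the log2 fold change and F, and 95% intervals from the same test. Likeness used log2(CPM + 1). Exact permutation of 2 against 2 libraries cannot give a p under 0.333, so none is given. Counting intervals and the floor of 3 counts cover counting error only.

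Replicates differed beyond sampling noise (chi-square over degrees of freedom of 6.05 with vehicle, 55.4 with DMSO, 5.23 with BI6727). The members and lists were chosen with earlier results of these data known. In each list, up to 4 genes with the largest change among those past the threshold were named (or 2 with the smallest p where none passed), and for each kinase the 5 genes most like it. Alternatives were DESeq2 1.42.0, its size factors, other filters, only the groups compared, a replicate block, offsets against each library's trend on gene length (lowess span 0.3) and each replicate left out; a crossed replicate block and RefSeq-matched transcript lengths were added after the data were seen. Promoter sequences were copied from RefSeq (GRCm38.p6).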

Additional observations from a re-analysis of the deposited data

How the results depend on the processing

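The log2 fold changes of the 4 kinases kept their direction in all 8 other fits with all libraries of the groups compared. For TGF-β1 with DMSO against vehicle, Plk1 lay between -0.57 and -0.50 and Plk3 between 1.27 and 1.32, and Plk4 between -0.36 and -0.24, passing with the filter of 10 CPM (-0.36) but not with length offsets (-0.24, adjusted p = 0.0972 from edgeR) or only the groups compared (-0.34, adjusted p = 0.134). Across genes, deviations of replicates with one number had r of -0.061 for vehicle with DMSO, 0.0053 for vehicle with BI6727 and -0.13 for DMSO with BI6727. No pairing by number was seen in these r, but they cannot decide it. They rest on a single difference per group, and that of DMSO rose with gene length. With the replicate block, Plk1 stood at -0.51 (adjusted p = 0.0249 from edgeR), Plk2 at 0.54, Plk3 at 1.31 and Plk4 at -0.36 for DMSO against vehicle, no call on a kinase changed in any comparison, and of the list genes 15 rose and 17 fell. With the DMSO numbers crossed, these were 18 and 26, and in both block fits 0 list genes passed between BI6727 and DMSO.

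With each replicate left out in turn, DMSO against vehicle gave -0.57 to -0.46 for Plk1, 0.48 to 0.61 for Plk2, 1.27 to 1.35 for Plk3 and -0.39 to -0.31 for Plk4. BI6727 against vehicle gave -0.76 to -0.65 for Plk1, 0.31 to 0.48 for Plk2 and -0.59 to -0.48 for Plk4. BI6727 against DMSO gave -0.095 to 0.17 for Plk3, with the negative value without BI6727 replicate 2, and the cause was not tested.

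The list counts moved more. For fits with a replicate left out or of only the groups compared, shares of all genes are not given beside these counts. Leaving out a replicate gave 8 to 32 higher and 4 to 48 lower for DMSO against vehicle, including 11 lower without BI6727 replicate 1 and 12 without BI6727 replicate 2. It gave 0 to 13 higher and 0 to 11 lower for BI6727 against DMSO, and 8 to 29 higher and 6 to 48 lower for BI6727 against vehicle. Fits of only the groups compared gave 11 lower for DMSO against vehicle, and 29 higher and 48 lower for BI6727 against vehicle. An adjusted p below 0.01 with a fold change above 2 left 6 higher and 3 lower for DMSO and 5 higher and 4 lower for BI6727, both against vehicle. The cause of these shifts was not tested. RefSeq-matched lengths moved the ratio of Plk2 to Plk1 to 0.921 with vehicle, 1.92 with DMSO and 1.98 with BI6727, and of Plk4 to Plk3 to 2.96, 0.936 and 0.802, by their construction. Depth limits Plk5 alone among the kinases, at 4 counts or fewer in a library.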

Other observations

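Of the genes in the 7 lists, 3 passed between BI6727 and DMSO with either DMSO library left out, although none of them passed with both. They were chosen after their values were seen. The fits share the BI6727 and vehicle libraries, so passing in both is not independent support. Each leaves a single DMSO library, and so does not hold the spread between the DMSO libraries. Over all genes, too, more passed in these fits than with all libraries. The share of all genes that passed in both is not given here. Cdc25b, a phosphatase that activates CDK1, had 100.9 and 88.8 normalized CPM with DMSO and 66.0 and 68.4 with BI6727. Its log2 fold change was -0.40 without DMSO replicate 1 (edgeR adjusted p of 0.00494) and -0.60 without DMSO replicate 2 (adjusted p = 0.000957), against -0.50 (adjusted p = 0.523) with all libraries. Ccna2, the cyclin of S and G2 phase, had 169 in both DMSO libraries, beside 135 and 131 with BI6727, and changes of -0.34 (adjusted p = 0.0124) and -0.36 (adjusted p = 0.0336) in the same fits. Klhl22, the ubiquitin ligase adaptor that removes PLK1 from kinetochores, had 95.3 and 98.6 with DMSO, 126 and 121 with BI6727 and 129 in both vehicle libraries, and changes of 0.33 (adjusted p = 0.0113) and 0.36 (adjusted p = 0.0226). For each of these 3 genes the DMSO and BI6727 groups did not overlap, as in 35.1% of all genes tested.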
